A study of Mus musculus with 8 samples.

Results

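Immediate-early genes were followed in RNA-seq libraries of germ cells that had been freed from mouse testis by enzymes. The 10 genes were *Fos*, *Fosb*, *Jun*, *Junb*, *Egr1*, *Ier2*, *Atf3*, *Dusp1*, *Klf6* and *Zfp36*, chosen by gene symbol from the 55357 genes in the deposited table. All 10 were among the 20187 genes that reached 1 TPM (RSEM's length-scaled transcript share) in any sample, which were the genes tested. They had been picked with values of these same libraries in view, so their levels, their spread and their difference between genotypes are given as a description. No p-value is printed for them, and nothing is read from the counts of members called.

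Germ cells came from 4 control males (*Mgat2*[F/F]) and 4 conditional knockout males (*Mgat2*[F/F]:*Stra8*-iCre, called cKO), all C57BL/6 and 15 days old, with 1 library per mouse. Both genotypes carry 2 floxed copies of *Mgat2*, the gene of an N-glycan branching enzyme of the Golgi, and the cKO males also carry the *Stra8*-iCre transgene, which expresses the Cre recombinase in spermatogonia. Testis tubules were digested at 37 °C for 20 min with a solution of 0.5 mg/ml collagenase and then for 20 min with a solution of 1.25 mg/ml trypsin. Both solutions held 200 µg/ml DNase. The authors describe the second solution as mixed with tubules in medium, so its final concentrations were lower. The cells were passed through a 70 µm filter and frozen before RNA was taken. The labels give this protocol and an RNA quality number of 10 for all 8 samples. They give no digestion day, litter or handling time for a single sample.

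Immediate-early genes are switched on within minutes of a stimulus without new protein synthesis, when kinases of the MAP kinase pathways act on factors that already sit at their promoters, such as SRF with its ELK partners and CREB. Their transcripts are short-lived, and several of the proteins they encode either drive the next round of transcription or shut the signal down again. The same genes are widely known to respond when tissue is taken apart with enzymes, so their RNA in a suspension of dissociated cells can be made during the isolation as well as before it.

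The sequences ahead of the genes hold some of these entry points. The 500 bases ahead of the start site of the GENCODE canonical transcript (GRCm39) were searched on both strands for the CArG box bound by SRF, the CRE bound by CREB (TGACGTCA), the AP-1 site (TGANTCA), the EGR site (GCGNGGGCG) and the TATA box (TATAAA). *Fos* and *Fosb* each held a CArG box, against 2.61% of the 14844 protein-coding genes tested, and *Dusp1* and *Ier2* each held a full CRE, against 2.32%. These 4 stretches are shown because they carry the response elements for which the family is best known, with the element in capitals and each strand read in the direction of the gene.
*Fos*, chr12:85520300-85520419, plus strand: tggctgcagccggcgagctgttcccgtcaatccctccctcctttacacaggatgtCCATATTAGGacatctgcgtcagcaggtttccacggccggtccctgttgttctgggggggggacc
*Fosb*, chr7:19044178-19044297, minus strand: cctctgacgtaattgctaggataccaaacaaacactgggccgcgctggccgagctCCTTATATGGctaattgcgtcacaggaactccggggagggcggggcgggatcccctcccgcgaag
*Ier2*, chr8:85389493-85389552, minus strand: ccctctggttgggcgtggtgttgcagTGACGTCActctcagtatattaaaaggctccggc
*Dusp1*, chr17:26727556-26727615, minus strand: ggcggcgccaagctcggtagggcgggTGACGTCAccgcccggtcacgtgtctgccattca

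The CArG box of *Fos* lay 303 to 294 bases ahead of its start and that of *Fosb* 266 to 257 bases ahead. The CRE lay 43 to 36 bases ahead of *Ier2* and 96 to 89 bases ahead of *Dusp1*. *Fos* held also an AP-1 site, which 10% of the protein-coding genes had, and the TATA box was found at *Fos* and *Junb*, against 17.9%. EGR sites stood ahead of *Fosb* and *Jun*, against 7.32%. The matches of the members did not overlap each other. *Egr1*, *Atf3*, *Klf6* and *Zfp36* held none of these 5 sets of letters in that window. Only the start of 1 transcript per gene was searched, and that of *Egr1* spans 5174 bp. The absence says nothing of elements ahead of other start sites, farther away or with other letters, and does not show that these promoters lack them.

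The members are short protein-coding genes. *Fos* lies at chr12:85520658-85524047 and *Fosb* at chr7:19036621-19043976, on the chromosome that also carries *Zfp36* (chr7:28076209-28079710). *Jun* lies at chr4:94937271-94940459, and *Junb* (chr8:85701113-85705359) and *Ier2* (chr8:85387960-85389483) share a chromosome too. Their canonical transcripts had a median of 3 exons (1 to 4) and spanned a median of 3446 bp (1524 to 13045), where the protein-coding genes tested had a median of 9 exons and 21726.5 bp. *Jun*, *Junb* and *Ier2* have a single exon, so their RNA cannot be told from DNA or unspliced RNA by a splice junction. The heptamer TATTTAT, the core of the AU-rich element that marks RNA for decay and is bound by tristetraprolin, the product of *Zfp36*, occurred in the 3′ untranslated region of 7 of the 10 members (70%) and of 30.4% of the 14606 protein-coding genes with such a region. It was found 3 times each in *Dusp1* and in *Zfp36* itself, 2 times each in *Fos* and *Klf6*, once each in *Fosb*, *Jun* and *Atf3*, and not in *Junb*, *Egr1* or *Ier2*. Per kilobase of untranslated region this was 1.05 heptamers in the members and 0.278 in all of these genes.

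Libraries held 12584726 to 15907505 expected counts in controls and 14069373 to 15572196 in cKO. The smallest signal taken as detectable, 3 counts, was worth 0.189 to 0.238 CPM on library totals alone. All other CPM values are counts scaled to library size with TMM factors. *Mgat2* itself stood at 69.8, 31.8, 64.3 and 59.8 CPM in controls and at 35.3, 20.1, 37.6 and 16.0 CPM in cKO. The lowest control lay under the highest cKO sample. Its log2 fold change of -1.05 (SE 0.36) did not pass edgeR's quasi-likelihood test (adjusted p = 0.47), and DESeq2 gave -1.06 with an adjusted p of 0.0309. EdgeR called 8 of 20187 genes between genotypes at an adjusted p under 0.05, or 0.0396%, all of them lower in cKO, while DESeq2 called 258 and limma-voom 0. Replicate 1 of both genotypes stood apart from replicates 2 to 4 across many genes, with r = 0.53 between the deviations of the 2 libraries from their genotype means over all genes tested, and the spread and the genotype differences of the members are given with and without them. *Mgat2* without them was at -1.08 (edgeR adjusted p = 0.449).

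Defining markers of germ cells were present in every library, and so were those of Sertoli cells, the somatic cells of the tubule. The 4 germ cell markers (*Ddx4*, *Dazl*, *Mael*, *Tdrd1*) summed to 786 to 1115 TPM and the 10 Sertoli markers, among them *Clu*, *Wt1* and *Sox9*, to 4797 to 5850 TPM. Most of the Sertoli sum was *Clu* alone (3754 to 4590 TPM), so the 2 sums do not give the shares of the cell types. Markers of peritubular myoid cells (350 to 660 TPM) and stromal cells (176 to 356 TPM) were present too. The 5 spermatid markers summed to 6.33 to 13.8 TPM, with *Spaca1* at 5.56 to 9.64 TPM and *Prm1* at 0 in all 8 libraries. The libraries held RNA of somatic as well as germ cells, and which of these cells carried the immediate-early RNA cannot be read from a bulk library, where fewer cells of a type and less RNA per cell cannot be told apart either.

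*Fos* and *Fosb* encode leucine-zipper proteins that join a JUN protein to form the AP-1 transcription factor. *Fos* measured 188, 624, 609.5 and 600.3 CPM in control replicates 1 to 4 and 204, 735, 627 and 611 CPM in cKO replicates 1 to 4. Replicate 1 lay about 3-fold under the rest in both genotypes, while the other 6 libraries covered a narrow band in which the genotypes overlapped. *Fosb* measured 125, 773, 733 and 697 CPM in controls and 144, 889, 666 and 784 CPM in cKO. Its replicate 1 was lower still. Against the range of control replicates 2 to 4, cKO replicate 3 lay below and cKO replicates 2 and 4 lay above.

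*Jun* and *Junb* encode the JUN side of AP-1, and JUN can also pair with itself. *Jun* measured 226, 701, 639.7 and 620.3 CPM in controls and 198, 739.8, 579 and 643 CPM in cKO. *Junb* measured 132, 412, 328 and 350.2 CPM in controls and 126, 483, 453 and 368 CPM in cKO. Both had replicate 1 as the lowest library of each genotype, and in *Junb* the cKO libraries of replicates 2 and 3 exceeded every control. Antisense transcripts overlap both genes on the other strand and the libraries were not stranded, so reads of *Junos* over 16.6% of the exon bases of *Jun*, and of *Prdx2* over 7.27% of those of *Junb*, could not be told apart from theirs. *Junos* averaged 0.954 TPM and *Prdx2* 315 TPM. Another antisense gene, *Gm65321*, covers 6.09% of the exon bases of *Junb*, and smaller overlaps exist for *Zfp36* (*Gm44710*, 3.57%) and *Dusp1* (*Ergic1*, 1.14%).

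*Egr1*, *Atf3* and *Klf6* are transcription factors outside AP-1 proper. *Egr1*, a zinc-finger factor that binds GC-rich sites, measured 258, 665, 601 and 613 CPM in controls and 257, 741, 666 and 639 CPM in cKO. *Atf3*, a stress-induced member of the ATF and CREB family, measured 16.0, 109.5, 104.8 and 85.1 CPM in controls and 17.4, 135, 91.2 and 100.5 CPM in cKO. It had the deepest replicate 1 of the 10 genes. *Klf6*, a Krüppel-like zinc-finger factor, measured 76.3, 198, 192 and 183 CPM in controls and 76.6, 232, 215 and 212 CPM in cKO. Without replicate 1 every cKO library of *Klf6* exceeded every control in CPM, which held for 1 of the 10 members and for 8.17% of all genes tested. In TPM it did not hold, since control replicate 2 (98.25 TPM) lay above cKO replicates 2 to 4 (96.15 to 97.89 TPM).

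*Ier2* encodes a nuclear protein of the immediate-early response, and *Dusp1* and *Zfp36* feed back on it, the first by removing phosphate from MAP kinases and the second by hastening the decay of AU-rich RNAs. *Ier2* measured 88.3, 197, 197 and 198 CPM in controls and 104.8, 228, 183 and 197 CPM in cKO. Control replicates 2 to 4 were thus within 2 CPM of each other, and replicate 1 again stood below. *Dusp1* measured 25.9, 110.3, 107 and 108 CPM in controls and 33.9, 117, 95.1 and 106 CPM in cKO. *Zfp36* measured 71.7, 217, 182 and 180.4 CPM in controls and 73.6, 253, 242 and 195 CPM in cKO. In both genes replicate 1 was the lowest library of each genotype and the remaining libraries of the 2 genotypes overlapped.

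**Figure D1:**
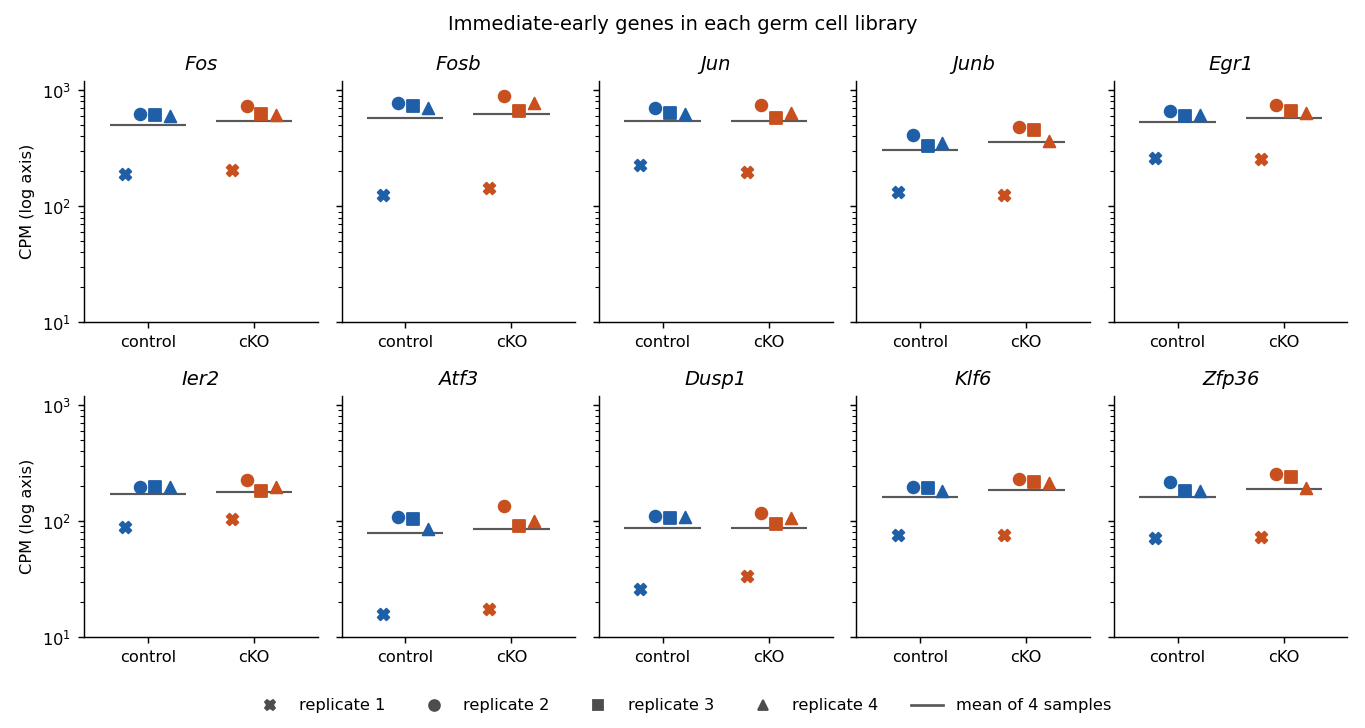
CPM (log axis) of each of the 10 immediate-early genes in the 4 control and 4 cKO libraries, with the replicate number shown by the marker and the mean of 4 samples by the line. Replicate 1 is the lowest library of its genotype in every panel, and replicates 2 to 4 of both genotypes lie close together.

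Per length, and therefore comparable between genes, *Fos* was the most abundant of the 10. In replicates 2 to 4 its level ran from 538 to 654 TPM with a median of 557 TPM, above the range of every other member. *Junb* (median 409 TPM), *Fosb* (372 TPM), *Jun* (347 TPM) and *Egr1* (328 TPM) followed, and neighbours among these 4 overlapped. *Ier2* (256 TPM) and *Zfp36* (137 TPM) each stood clear of the next gene on either side, although the highest library of *Atf3*, farther down, exceeded the lowest of *Zfp36*. *Dusp1* (107 TPM), *Atf3* (98.2 TPM) and *Klf6* (96.2 TPM) formed the low end and overlapped one another.

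The same order put the members among the more abundant messages of these libraries. *Fos* ranked 152 to 186 by TPM among the 20187 genes tested in replicates 2 to 4, and 730 and 922 in replicate 1. *Atf3* ranked 1166 to 2268 in replicates 2 to 4 and 7147 and 8977 in replicate 1. The 10 genes together reached 2532 to 3144 TPM in replicates 2 to 4 and 822 and 871 TPM in replicate 1. The proportions within the AP-1 genes were not the same in all libraries. The ratio of *Fosb* to *Fos* in TPM was 0.361 in control replicate 1 and 0.398 in cKO replicate 1, against 0.577 to 0.705 in the other 6 libraries, whereas the ratio of *Junb* to *Jun* in replicate 1 (1.13 and 1.22) lay inside the range of the others (0.985 to 1.502).

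**Figure D2:**
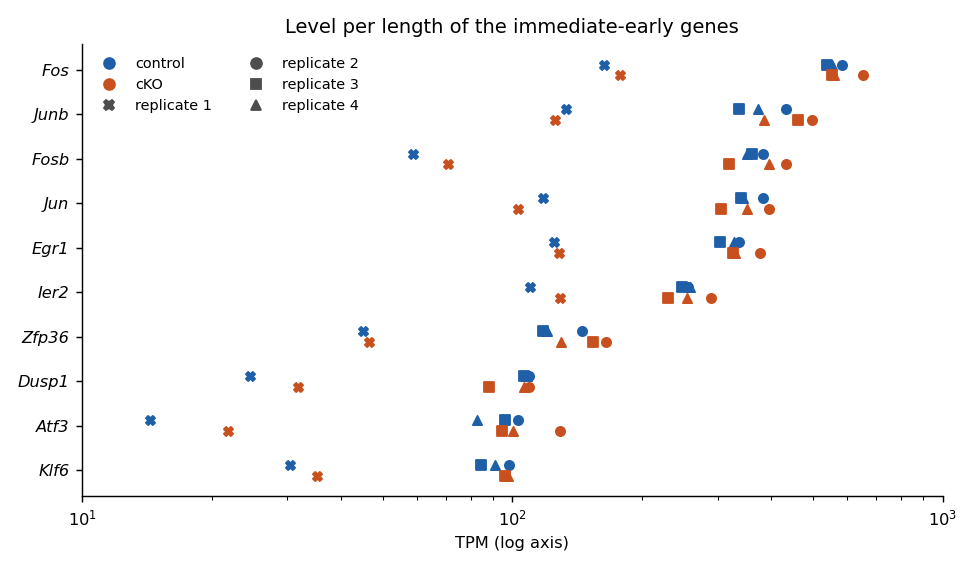
TPM (log axis) of the 10 genes in each library, ordered by the median of replicates 2 to 4, with genotype shown by colour and replicate by marker. *Fos* in replicates 2 to 4 lies above all other members, and the replicate 1 libraries lie to the left for every gene.

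The genotype comparison asked whether loss of *Mgat2* in spermatogonia went with another level of these genes, and over all 8 libraries the differences of the 10 were smaller than their standard errors, which include the distance of replicate 1 from the rest. Log2 fold changes of cKO over control ran from -0.02 for *Jun* to 0.23 for *Zfp36* with a median of 0.11, and their standard errors ran from 0.34 for *Ier2* to 0.76 for *Atf3*. The changes were 0.11 (SE 0.52) for *Fos*, 0.09 (SE 0.73) for *Fosb*, 0.23 (SE 0.51) for *Junb* and 0.11 (SE 0.42) for *Egr1*. Those of the remaining genes were 0.13 (SE 0.76) for *Atf3*, 0.18 (SE 0.44) for *Klf6*, 0.07 (SE 0.34) for *Ier2* and 0.00 (SE 0.56) for *Dusp1*. EdgeR called 0 of 10, against 0.0396% of all genes, with 0 at an unadjusted p under 0.05, against 8.9% of all genes. DESeq2 called 0 of 10, against 1.28% of all genes, and limma-voom called 0 of all genes. The genotypes overlapped in all 10 members, and did not overlap in 5.5% of all genes. Since the choice of the members used this contrast, nothing is read from these counts.

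The sign of the small differences changed when a single library was left out. Without control replicate 1 all 10 were lower in cKO with a median of -0.16, and without cKO replicate 1 all 10 were higher with a median of 0.40. Without cKO replicate 2, the library with the highest value of all 8 for each of the 10 genes, 7 of 10 were lower and the median was -0.08. With both replicate 1 libraries left out, 9 of 10 were higher in cKO, as over all 8 libraries. The standard errors then shrank to between 0.06 for *Egr1* and 0.20 for *Atf3*, and the changes ran from -0.03 for *Dusp1* to 0.26 for *Junb* (SE 0.13), with *Zfp36* at 0.25 (SE 0.11) and *Klf6* at 0.20 (SE 0.06). In that fit edgeR called 0 of 10 members and 4.24% of all genes.

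**Figure D3:**
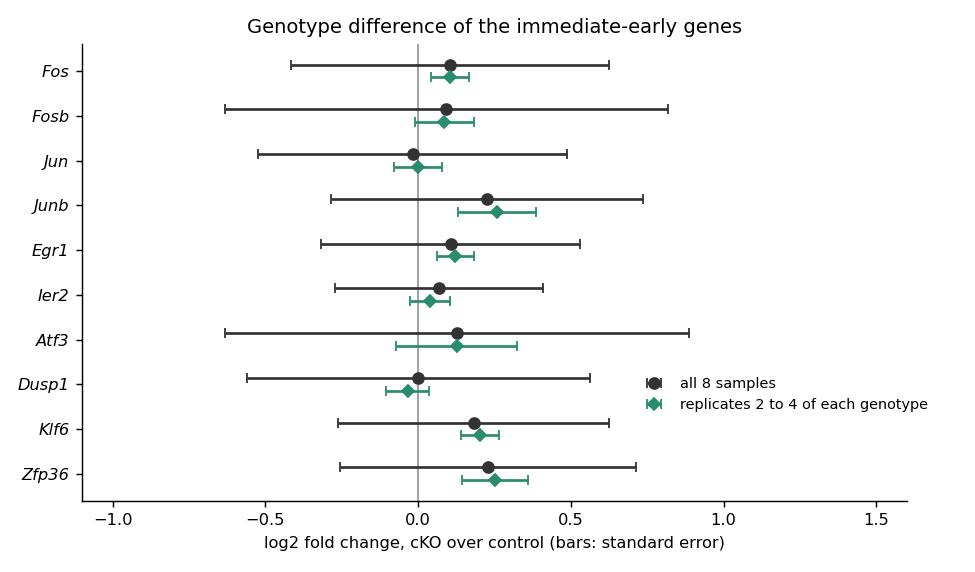
Log2 fold change of cKO over control for each gene, with bars for the standard error of the edgeR fit, over all 8 samples (black) and over replicates 2 to 4 of each genotype (green). The points of both fits nearly coincide, from about 0 for *Jun* and *Dusp1* to 0.26 for *Junb*, and the bars are several times shorter without replicate 1.

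The spread within a genotype was the larger quantity. The standard deviation of log2 CPM about the genotype means was 0.54 for *Ier2*, 0.68 for *Egr1* and 0.71 for *Klf6*, and reached 0.93 for *Dusp1*, 1.25 for *Fosb* and 1.33 for *Atf3*. The median over the 10 members was 0.82, beside 0.27 over all genes tested, and the members lay between the 73.4th and the 98.4th percentile of that spread. Over replicates 2 to 4 the same quantity ran from 0.06 for *Klf6* to 0.25 for *Atf3*, with a median of 0.13 for the members and 0.19 for all genes. Among the 6 libraries without replicate 1 the median member thus varied less than the median gene. The members averaged 1219 to 8847.5 counts and were not set against genes of like abundance. All genes tested include genes with few counts, where counting error adds to the spread. The related genes of the lists below had a median of 0.12, so the low value is not particular to the members.

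Replicate 1 was the lowest library of both genotypes in 10 of 10 members and in 19.4% of all genes, and the highest of both in 0 members and in 21.1% of all genes. The distance of replicate 1 from the mean of replicates 2 to 4 on the log2 scale was, in control and cKO, -1.70 and -1.68 for *Fos*, -2.56 and -2.43 for *Fosb*, and -2.63 and -2.62 for *Atf3*. It was smallest for *Ier2*, at -1.16 and -0.95, and for *Egr1*, at -1.28 and -1.40. As folds, replicates 2 to 4 stood from 1.94-fold (*Ier2* in cKO) to 6.27-fold (*Atf3* in cKO) above replicate 1. A distance of at least 2-fold in both genotypes, a limit set after the values were seen, was met by 9 of 10 members and by 2.27% of all genes, with *Egr1* just inside and *Ier2* just outside. The opposite, replicate 1 at least 2-fold higher in both, was met by 3.69% of all genes and by none of the members. Over all genes the median distance was -0.0018 in control and -0.0016 in cKO.

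The order of the members in this distance was alike in both genotypes, which share no library. *Atf3* and *Fosb* were the farthest down in each, and *Ier2* and *Egr1* were among the least affected in each. Pearson's r between the distances in control and in cKO was 0.899 across the 10 genes, which are not independent of each other. The largest difference between genotypes was that of *Dusp1*, at -2.06 in control and -1.63 in cKO. Among the remaining libraries the members also moved together to a lesser degree. Control replicate 2 was the highest control library for 9 of 10 members, and cKO replicate 2 was the highest of all 8 libraries for 10 of 10. The shares of all genes for these counts were not taken, so nothing particular to the members is read from them. The summed level of the members in cKO replicate 2 was 4554 CPM, against 3637 to 4008 CPM in control replicates 2 to 4, 3818 and 3855 CPM in cKO replicates 3 and 4, and 1207 and 1235 CPM in replicate 1.

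**Figure D4:**
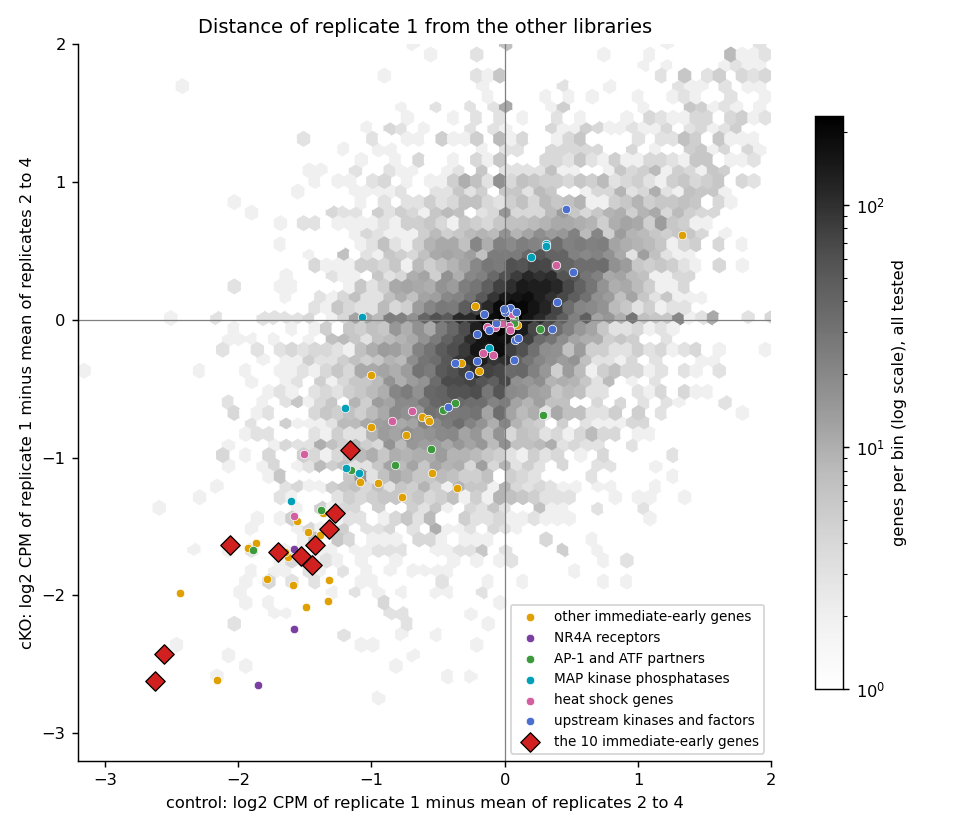
Distance of replicate 1 from the mean of replicates 2 to 4 (log2 CPM) in control (x axis) and in cKO (y axis), for all genes tested (grey bins, count on a log scale), for 6 of the lists of related genes (coloured points) and for the 10 members (red diamonds). The members lie at the lower left between -2.63 and -0.95, and most genes of the other immediate-early list lie near them. The upstream kinases and factors scatter about 0, with *Rps6ka1* at 0.46 in control and 0.80 in cKO. Genes beyond the axes are not drawn.

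Other genes of the same response were taken from lists of textbook members, 103 genes in all, of which 101 were tested. The lists were drawn up with earlier results of these data known, so their values are a description and no independent check. EdgeR called 0 of the 101 between genotypes, against 0.0396% of all genes, with 8 at an unadjusted p under 0.05, against 8.9% of all genes. DESeq2 called 2, against 1.28% of all genes, and limma-voom 0, and nothing about the lists is read from these counts. The 2 were *Dnajb1*, a heat shock cochaperone, at -0.24 (SE 0.07, DESeq2 adjusted p = 0.0371), and *Rps6ka5*, the kinase MSK1 that acts on CREB and histones at immediate-early genes, at 0.38 (SE 0.11, DESeq2 adjusted p = 0.0358). In edgeR these genes stood at -0.23 (SE 0.06, adjusted p = 0.34) and 0.39 (SE 0.10, adjusted p = 0.296). The median log2 fold change over the 101 genes was 0.08, and over all genes tested it was 0.01.

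The other immediate-early genes followed the members in replicate 1. Of 31, 28 had replicate 1 as the lowest library of both genotypes (90.3%, beside 19.4% of all genes), and 16 were at least 2-fold lower in both (51.6%, beside 2.27%). Their median distance was -1.08 in control and -1.29 in cKO. *Rhob*, a small GTPase, was at -1.08 and -1.18, *Nfkbia*, the inhibitor of NF-κB, at -0.95 and -1.19, and *Socs3*, the feedback inhibitor of cytokine signalling, at -1.86 and -1.62. The 3 that did not follow were *Ier5l* (0.09 and -0.04), *Klf10* (-0.22 and 0.10) and *Arc* (1.33 and 0.62), and *Arc*, an effector gene of active neurons, was highest in replicate 1. These 31 genes had the short structure too, with a median of 4 exons and 3568 bp, and 19 of them (61.3%) held the AU-rich heptamer.

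Partners and relatives of the members showed the same pattern in part. All 3 NR4A receptors, immediate-early nuclear receptors, were at least 2-fold lower in replicate 1 of both genotypes, with *Nr4a1* at -1.58 and -2.24 and *Nr4a2* at -1.85 and -2.65. Of 11 AP-1 and ATF partners 7 had replicate 1 lowest in both. *Jund*, the most abundant of them, was at -1.16 and -1.09, *Atf4*, the translation-controlled stress factor, at -0.55 and -0.94, and *Maff*, a small MAF protein, at -1.89 and -1.67. Both other ZFP36 genes tested had replicate 1 lowest in both genotypes, *Zfp36l1* at -0.94 and -1.03 and *Zfp36l2* at -0.28 and -0.34, but neither by 2-fold in each.

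Within families the members stood out from some of their relatives. Among the 9 other MAP kinase phosphatases 5 had replicate 1 lowest in both genotypes, as *Dusp6* at -1.19 and -1.08 and *Dusp8* at -1.60 and -1.31, while *Dusp2* (0.19 and 0.45), *Dusp7* (0.31 and 0.55) and *Dusp9* (0.31 and 0.54) had it highest. Among the 8 genes of the KLF list 4 had replicate 1 lowest in both and none by 2-fold. *Klf9* was at -0.27 and -0.40, *Klf11* at -0.48 and -0.42 and *Klf3* at -0.58 and -0.57, where *Klf6* was at -1.32 and -1.52. *Klf2* (-1.63 and -1.72) and *Klf4* (-1.78 and -1.88), counted with the other immediate-early genes, lay farther down than *Klf6*. *Klf10* of that list did not. In the EGR family *Egr2* was at -0.90 and -0.60 and *Egr3* at -2.06 and -1.70, whereas *Egr4* was highest in replicate 1 (0.26 and 0.33). Of the corepressors of EGR proteins, *Nab1* was lowest in replicate 1 by less (-0.40 and -0.22), and *Nab2* lay at -0.03 in both genotypes.

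The kinases and factors that act ahead of the members had a median standard deviation within genotype of 0.11, where all genes had 0.27. These sets were not matched for abundance, so the lower value is not read as a steadier level. Of 19, 6 had replicate 1 lowest in both genotypes (31.6%, beside 19.4% of all genes) and 0 by 2-fold. Replicate 1 was highest in both for 3 of the 19, beside 21.1% of all genes. The median distance over the 19 was 0.01 in control and -0.06 in cKO. *Srf*, the factor that binds the CArG box, was at -0.27 and -0.40. *Crem*, a CRE-binding factor of the germ line, was higher in replicate 1, at 0.51 and 0.35, and so was the kinase gene *Rps6ka1*, at 0.46 and 0.80. RNA levels of these genes say nothing of the phosphorylation through which they act.

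Heat shock genes were examined because they answer heat and protein stress rather than growth factor signalling. Of 13, 8 had replicate 1 lowest in both genotypes (61.5%, beside 19.4% of all genes) and 1 by at least 2-fold in both (7.69%, beside 2.27%). The 1 was the inducible *Hspa1a* at -1.58 and -1.42, next to which its near-identical neighbour *Hspa1b* was at -1.50 and -0.98. Reads of these paralogs may have been divided between them by the counting. *Hspb1* (-0.70 and -0.66) and *Bag3* (-0.84 and -0.73) were also lowest in replicate 1 of both genotypes. The constitutive *Hspa8* (-0.14 and -0.05) and *Hsp90ab1* (0.05 and 0.04) lay near 0, and *Hsp90aa1* was highest in replicate 1 of both genotypes (0.38 and 0.40). The median distance over the 13 was -0.09 and -0.07.

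The genes whose log2 CPM over the 8 samples was most like the mean z-score of the 10 members were sought among the 16059 other tested genes with a mean of at least 10 counts. *Jund* came first with r = 0.997, followed by *Atrx* (r = 0.996), *Rhob* (r = 0.996), *Csrnp1* (r = 0.995) and *Nr1d1* (r = 0.994). The 8 points of each r fall into the pair of replicate 1 libraries and the other 6, so r mostly records that division. Size was not part of the measure. *Jund* stood at 237 and 264 CPM in replicate 1 and at 509 to 625 CPM in the others, and *Csrnp1* at 40.9 and 39.03 CPM against 99.5 to 129 CPM. *Atrx*, a chromatin remodeller, stood at 115 and 116 CPM in replicate 1 and at 174 to 191 CPM in the others, and *Nr1d1*, a repressor of the circadian clock, stood at 33.6 and 32.7 CPM against 60.4 to 69.6 CPM.

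Markers of several somatic cells moved with the same division of libraries, and their part in the pattern was not tested. The 5 endothelial markers summed to 14.4 and 12.7 CPM in replicate 1 and to 20.9 to 27.3 CPM in the others, with 3 of 5 lowest in replicate 1 of both genotypes. The 5 peritubular myoid markers summed to 566 and 487 CPM in replicate 1 and to 677 to 925 CPM in the others, with 4 of 5 lowest. The 6 stromal markers summed to 550 and 585 CPM against 649 to 958 CPM, with 4 of 6 lowest, and the 3 red cell markers to 9.37 and 13.5 CPM against 14.9 to 25.96 CPM, with 1 of 3 lowest. None of these defining markers was at 0 in every library. The ratio of replicates 2 to 4 over replicate 1 was 2.20 and 1.57 for red cell, 1.82 and 1.81 for endothelial, 1.24 and 1.71 for myoid and 1.25 and 1.44 for stromal markers, in control and cKO.

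Other marker lists did not follow that division in both genotypes, or did so by little. Leydig markers summed to 28.5 CPM in control replicate 1 and 50.5 CPM in cKO replicate 1, against 44.4 to 62.6 CPM, and those of macrophages to 19.2 and 40.4 CPM against 23.1 to 44.0 CPM, with 1 of 6 and 0 of 7 lowest in both. Sertoli markers summed to 5003 and 5169 CPM in replicate 1 and to 5369 to 5990 CPM in the others, a ratio of 1.10 in control and 1.13 in cKO, with 5 of 10 lowest. The sum of the 4 germ cell markers was on the opposite side, at 1551 and 1311 CPM in replicate 1, the highest library of each genotype, and at 1089 to 1474 CPM in the others. Replicate 1 was the highest library of both genotypes for 3 of the 4, and for *Dazl* it was the lowest control library. Markers of spermatogonia summed to 481 and 615 CPM against 397 to 495 CPM, and those of spermatocytes to 1341 and 857 CPM against 825 to 1416 CPM. Of the 6 spermatocyte markers 3 were lowest in replicate 1 of both genotypes and 1, *Piwil1*, was highest. *Piwil1* weighed on the sum, at 645 CPM in control replicate 1 against 168 to 309 CPM in the other controls. In cKO it stood at 155 CPM against 43.5 to 64.9 CPM. The members' own ratio of replicates 2 to 4 over replicate 1 ran from 2.24 to 6.26 in control and from 1.94 to 6.27 in cKO. Whether replicate 1 of both genotypes shared a day or a handling step is not given in the sources used here, and such a step and the mouse cannot be told apart.

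**Figure D5:**
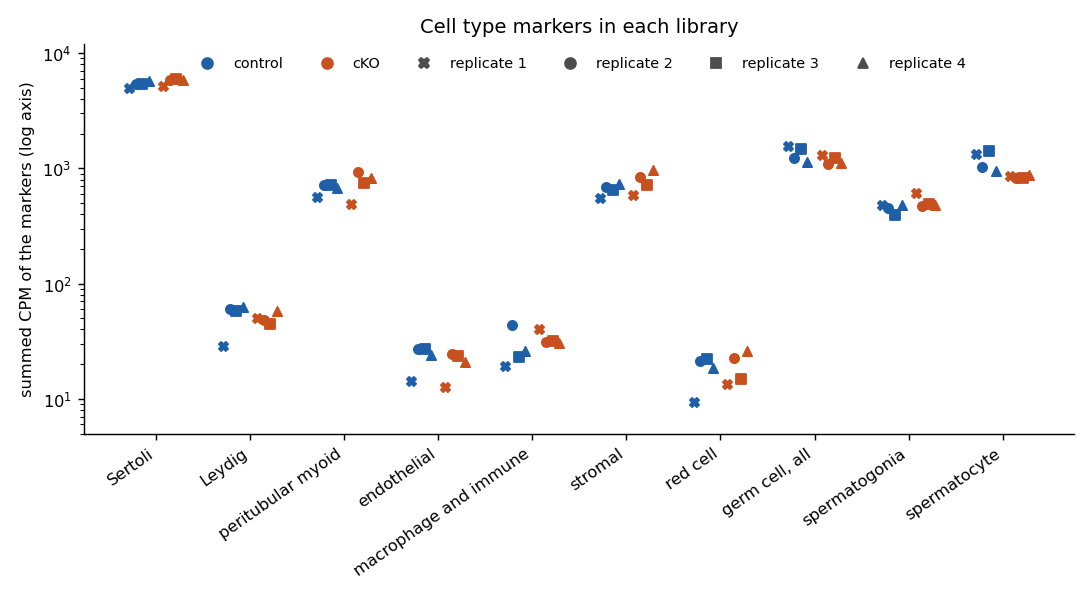
Summed CPM (log axis) of cell type markers in each library, with genotype shown by colour and replicate by marker. Replicate 1 is lowest for endothelial, peritubular myoid, stromal and red cell markers and highest for the 4 general germ cell markers in both genotypes, and Sertoli markers are high in every library.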

How the data were processed

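Germ cell RNA of 4 control and 4 cKO males was polyA-enriched and sequenced as non-stranded paired-end libraries. The authors aligned reads to mm39 with STAR (2.7.9a) and quantified Ensembl 105 genes with RSEM (1.3.3). The authors deposited expected counts, which RSEM estimates and which are not normalized, and TPM values, scaled for length and depth. Of the nonzero expected counts 15.2% were not whole, so they were rounded. Genes that reached 1 TPM in any sample were tested with edgeR 4.0.16 (TMM, robust quasi-likelihood F-test, limma 3.58.1, R 4.3.3) with Benjamini-Hochberg adjustment over 20187 genes and a threshold of 0.05. Log2 CPM used a prior count of 2. DESeq2 1.42.0, limma-voom, other scalings, other filters, the replicate number as a block and left-out samples were alternatives. Structure and motifs came from GRCm39 with GENCODE M39. Floors and precision cover counting error only.

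Members, gene lists and markers were chosen with earlier results of these data known. Named genes are *Mgat2*, the members, the markers, the 2 most abundant and 2 most changed genes of each list, and the 5 genes most like the members. Some genes that this rule names are not reported here. *Ier5l*, *Klf2*, *Klf4*, *Klf10*, *Arc*, *Egr3*, *Egr4*, *Dusp7*, *Dusp9*, *Srf*, *Rps6ka1*, *Hspa1a*, *Hspa1b*, *Hspb1* and *Bag3* were added after their values were seen. The replicate numbers were checked for pairing by the correlation of deviations from genotype means.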

Additional observations from a re-analysis of the deposited data

Results flagged for a closer look

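In groups of 4 samples, a highest or lowest sample was marked where its gap to the nearest of the others took up more of the group's range than Dixon's 95% critical value of 0.829 allows, which chance does in about 1 in 20 groups. Of 92 groups over 46 named genes 23 were marked. Many of these genes were chosen with the distance of replicate 1 in view, so their number is not set against that rate. Among the members these were control replicate 1 for *Fos* (188 CPM), *Fosb* (125 CPM), *Jun* (226 CPM), *Egr1* (258 CPM), *Ier2* (88.3 CPM), *Dusp1* (25.9 CPM) and *Klf6* (76.3 CPM), and cKO replicate 1 for *Klf6* (76.6 CPM). All 8 lay below the rest of their genotype. In the remaining cKO groups of the members replicate 1 was also the lowest, but its gap did not pass the limit.

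Among related genes control replicate 1 was marked as low for *Jund* (237 CPM), *Nab1* (69.1 CPM), *Nr4a1* (90.8 CPM), *Nr4a2* (2.92 CPM), *Rhob* (217 CPM), *Socs3* (17.8 CPM), *Zfp36l1* (44.1 CPM) and *Nr1d1* (33.6 CPM). Replicate 1 was marked as low in both genotypes for *Atf4*, at 117 CPM in control and 97.5 CPM in cKO, and for *Atrx*, at 115 and 116 CPM, and in cKO alone for *Dusp6* (47.1 CPM). *Hsp90aa1* was marked as high in cKO replicate 1 (1894 CPM). The single marked library that was not replicate 1 was control replicate 3, for *Hsp90ab1* (1322 CPM). The cause of these values was not tested.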

How the results depend on the processing

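The 8 genes called between genotypes became 258 with DESeq2 (247 lower and 11 higher in cKO), 18 with upper-quartile scaling, 17 with library totals, 35 of 29415 without a filter, and 0 with limma-voom (2030 at an unadjusted p under 0.05), with a fit that was not robust (1991) and with filterByExpr (1665). Leaving out 1 sample at a time gave 0 to 32, with 24 without control replicate 1, 2 without control replicate 2, 0 without control replicate 3, 32 without control replicate 4, 15 without cKO replicate 1, 1 without cKO replicate 2 and 0 without cKO replicates 3 and 4. Replicates 2 to 4 alone gave 855. The replicate block gave 1464 (7.25% of genes), and with DESeq2, an alternative added after the data were seen, 1190. The numbers were not taken to pair the mice: the correlations of same-numbered deviations were 0.53, 0.14, 0.04 and 0.20 for replicates 1 to 4, not over 0.1 in every pair, and -0.02, 0.04 and 0.02 for replicates 2 to 4 without replicate 1. With the replicate block 1 member was called, *Zfp36* at 0.20 (SE 0.06). The 0 calls among the 101 related genes became 2 with DESeq2, 6 with the replicate block, 5 with DESeq2 and the block, and 3 in replicates 2 to 4 (*Rps6ka3*, *Rps6ka5* and *Tnfaip3*). *Mgat2* at -1.06 passed with DESeq2 and at -1.08 with DESeq2 and the block, and the adjusted p ran from 0.00198 to 0.818 over all alternatives. The median spread of the members, 0.82, was 0.13 without replicate 1 and 0.60 to 0.89 when 1 sample at a time was left out. Of the members 8 to 9 were higher in cKO under the other tools, scalings and filters. The distance of replicate 1 held at 2-fold for 9 of 10 members on library totals and on TPM scales, also added later. The cause of these changes was not tested. With 4 mice a genotype and standard errors of 0.34 to 0.76, small differences of the members between genotypes could not be detected.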
